A study of Mus musculus with 3 samples.

Results

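TBX5 binding was examined at the 6 genes of platelet-derived growth factor (PDGF) signalling that encode a ligand or a receptor. These were the receptor genes Pdgfra and Pdgfrb and the ligand genes Pdgfa, Pdgfb, Pdgfc and Pdgfd. A peak was counted for a gene when its summit lay inside the gene body, from the first to the last annotated base. A summit outside was counted when the nearest end of any protein-coding gene, within 100 kb, was that gene's. By this rule 13 of the 28381 deposited peaks belonged to the PDGF genes, 6 of them to the receptors and 7 to the ligands.

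The peaks came from chromatin immunoprecipitation and sequencing (ChIP-seq) of whole lung from E14.5 embryos of CD-1 mice, an outbred stock, with an antibody to the T-box transcription factor TBX5. The study held 2 TBX5 ChIP libraries, each from 1 lung, and 1 input library of chromatin that was not precipitated, with no genotype or treatment named. All 3 titles name lung, but in the source field the input and ChIP library 2 are called heart, and a list of peaks gives no RNA level with which to check the tissue. The 1 list used here holds no value per library, so no test across libraries was possible, no error between replicates can be given, and the depth is unknown. Every value below therefore describes this list.

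PDGF ligands are dimers that bind 2 receptor tyrosine kinases, PDGFRα and PDGFRβ, on neighbouring cells. In the developing lung PDGF-A is known as an epithelial signal to PDGFRα-bearing fibroblasts, among them the precursors of alveolar myofibroblasts. PDGF-B is known as an endothelial signal that draws PDGFRβ-bearing pericytes and smooth muscle cells to vessels. PDGF-C and PDGF-D are secreted in a latent form and become active after cleavage, PDGF-C mainly through PDGFRα and PDGF-D through PDGFRβ. TBX5 itself is expressed in the mesenchyme of the lung, and whole lung holds all of these cell types, so the list cannot tell in which of them a site was bound.

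Strong peaks lay in both receptor genes and at none of the 4 ligand genes, where 11.9% of all protein-coding genes had one. A strong peak was one of the 5000 peaks of the list with the highest −log10 q, all of them at 21.3 or more. Peaks tied at the limit were taken in the order of the list. Pdgfra stood at the edge of this definition, and with the 4500 highest by −log10 q (11.0% of all genes), or the 5000 highest by fold (11.5%), only Pdgfrb of the 6 had a strong peak. Pdgfrb held 2 strong peaks, of 19.4-fold and 9.59-fold enrichment over local background, and Pdgfra held 1, of 10.1-fold, at its listed start. Pdgfa, Pdgfc and Pdgfd had 7 peaks between them that were not strong, from 3.53-fold to 9.79-fold, and Pdgfb had 0. The 9.79-fold peak of Pdgfa was higher by fold than the lower strong peak of Pdgfrb. Its −log10 q of 18.8 alone left it out of the strong peaks. The fold and −log10 q are the authors' values for each peak.

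The sequence at the start of Pdgfra is shown because it lay wholly under a strong peak, beside 1 of the 2 listed starts of Pdgfa, which lay under none. Both are RefSeq promoter windows of build GRCm38.p6 (mm10), 250 bases before and 50 after a listed start, printed 5′ to 3′ on the strand of the gene. Capitals mark the T-box core AGGTGT, or its shorter form GGTGT, on either strand, so the letters ACACCT are the core read on the opposite strand.
Pdgfra, chr5:75152001-75152300, plus strand: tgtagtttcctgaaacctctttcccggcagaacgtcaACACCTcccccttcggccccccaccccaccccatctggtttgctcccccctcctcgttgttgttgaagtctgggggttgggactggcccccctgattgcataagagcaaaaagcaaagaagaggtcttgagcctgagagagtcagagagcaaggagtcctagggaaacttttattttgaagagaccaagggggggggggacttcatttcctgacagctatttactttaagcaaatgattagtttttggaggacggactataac
Pdgfa, chr5:138994232-138994531, minus strand: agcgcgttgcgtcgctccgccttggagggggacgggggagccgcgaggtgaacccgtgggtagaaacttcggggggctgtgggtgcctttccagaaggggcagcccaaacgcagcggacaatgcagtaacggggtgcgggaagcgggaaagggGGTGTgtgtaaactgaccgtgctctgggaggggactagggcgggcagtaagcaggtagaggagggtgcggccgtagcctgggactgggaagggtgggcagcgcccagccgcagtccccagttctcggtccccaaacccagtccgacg

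The receptor gene Pdgfra spans chromosome 5 from 75151322 to 75198206 and encodes PDGFRα, the receptor of fibroblast precursors. Its strong peak ran from 75151942 to 75152327, with 10.1-fold enrichment and a −log10 q of 21.6. The peak covered 100% of the window printed above, and its summit lay 169 bp before the listed start at 75152251. The single match to the T-box core in that window, at 75152038 to 75152043, had its centre 41.5 bp from the summit. This peak ranked 4961 of 28381 by −log10 q and 5975 by fold, so it stood just inside the strong peaks by the first measure and outside the 5000 highest by the second.

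**Figure D1:**
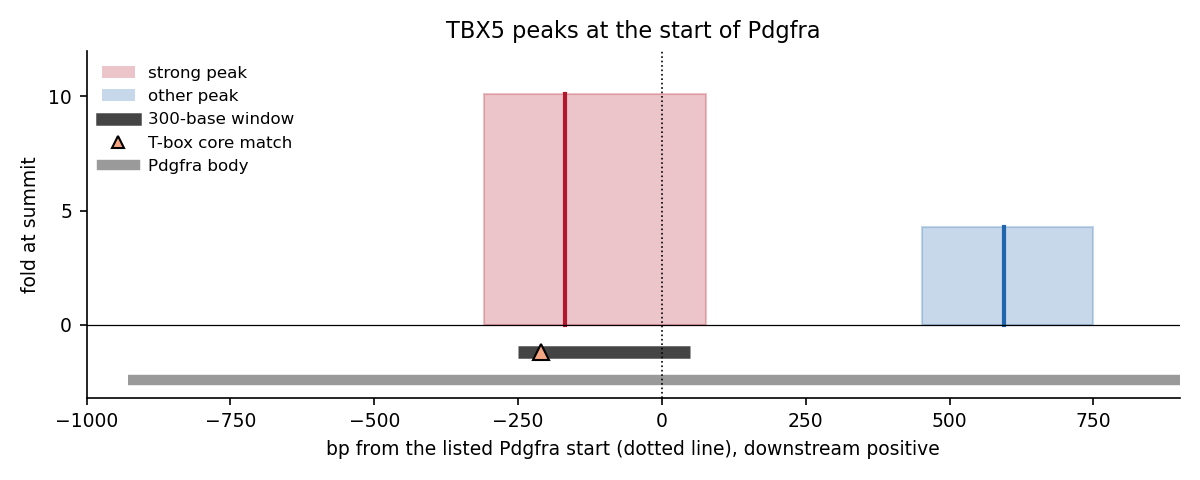
Peaks at the start of Pdgfra, plotted as fold enrichment at the summit (vertical axis) against distance in bp from the listed start (horizontal axis, downstream positive). Boxes span each peak, vertical lines mark summits, the dark bar is the 300-base window and the triangle is the T-box core match; the strong peak spans −309 to 76 bp and the second peak 452 to 749 bp.

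The 3 other peaks of Pdgfra were weak. One lay 594 bp past the listed start, 763 bp from the strong summit, with 4.29-fold enrichment. Another lay 4.47 kb past the start inside the gene, from 75156595 to 75156783, with 4.35-fold enrichment. The last lay 12.2 kb beyond the last base of the gene, from 75210136 to 75210637, with 5.10-fold enrichment. All 3 were below the list's median fold of 6.27. The gene before Pdgfra, Gsx2, ends 73.4 kb away and had 0 peaks.

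Few promoters of other genes carried a peak as high as that of Pdgfra. RefSeq windows were matched for 4 of the 6 PDGF genes (Pdgfra, Pdgfa with 2 windows, Pdgfc and Pdgfd), and only that of Pdgfra held a summit. Among 17274 protein-coding genes with a window, 2319 (13.4%) had a summit in one. The highest such peak of each gene had a median of 5.58-fold (quartiles 4.55 and 7.06), and 173 genes stood above the 10.1-fold of Pdgfra. Of those 2319 genes, 92.4% had a lower fold than Pdgfra. Among all peaks of the list, at promoters or not, 78.9% had a lower fold.

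The T-box core was about as frequent in promoter windows with a summit as in windows without a peak. AGGTGT or ACACCT was found in 12.1% of 2482 windows with a summit, in 13.1% of 17348 windows that no peak overlapped and in 12.8% of all 21045 windows of 300 bases. Of 190 windows with a summit of at least the fold of Pdgfra, a limit set by that gene's own value, 18.9% held it. The windows of Pdgfa, Pdgfc and Pdgfd held no AGGTGT. Among them GGTGT was found in 1 Pdgfa window, from 97 to 93 bp before the start, and that form was present in 40.1% of all windows. These counts overlap, since every AGGTGT contains a GGTGT, and a match describes letters and not a bound site.

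The receptor gene Pdgfrb spans chromosome 18 from 61045127 to 61085067 and encodes PDGFRβ, the receptor of pericytes and smooth muscle. Both of its peaks lay inside the gene. The higher ran from 61054421 to 61054886, with its summit 9.55 kb from the first base, 19.4-fold enrichment and a −log10 q of 49.6. It ranked 1614 by −log10 q and 1586 by fold, and 94.4% of all peaks had a lower fold. The other ran from 61056957 to 61057452, 2.46 kb away, with 9.59-fold enrichment and a −log10 q of 21.7. It ranked 4918 by −log10 q but 6548 by fold.

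The pair of peaks in Pdgfrb stood alone in its neighbourhood. The next gene after it, Csf1r, which encodes a related receptor kinase of macrophages and begins 20.5 kb beyond Pdgfrb, had 0 peaks, and so did Gm52351, which ends 0.414 kb before Pdgfrb. The nearest summit outside Pdgfrb lay 81.7 kb from the gene. Among all genes, 1068 had a peak of higher −log10 q than the highest of Pdgfrb, and 2547 had one higher than that of Pdgfra.

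**Figure D2:**
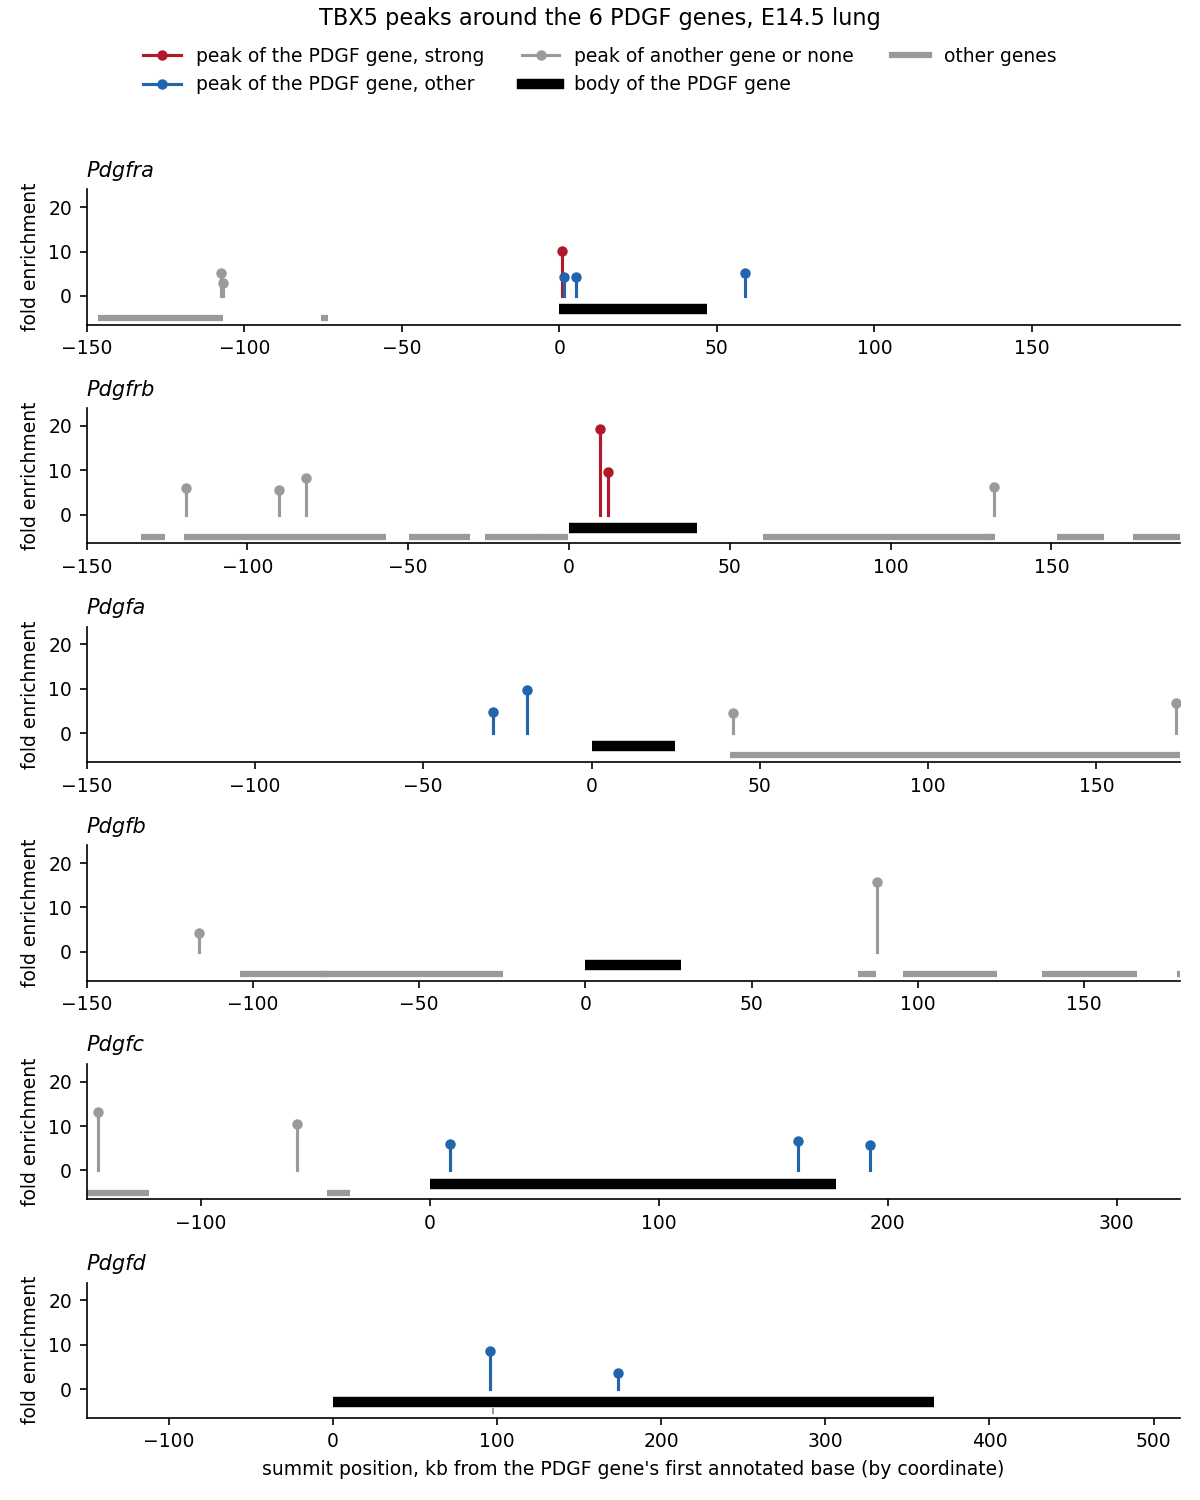
TBX5 peaks around each PDGF gene, with fold enrichment at the summit (vertical axis) against distance in kb from the gene's first annotated base by coordinate (horizontal axis, a separate scale per gene). Stems are peaks, the black bar is the PDGF gene and grey bars are other genes; the 2 strong peaks of Pdgfrb stand together inside the gene, that of Pdgfra stands at its start, and Pdgfb has none.

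The ligand gene Pdgfa, on chromosome 5 from 138976014 to 139000792 and on the minus strand, encodes the chain that signals through PDGFRα. It had 2 peaks, and 0 of them lay inside the gene. The higher, from 138956468 to 138956876, had 9.79-fold enrichment and a −log10 q of 18.8, which ranked it 5847. It lay 19.3 kb beyond the 3′ end of the gene and 37.6 kb downstream of the nearest listed start. The other, from 138946567 to 138946774, lay 29.3 kb beyond that end, with 4.87-fold enrichment. Both were nearer to an end of Gm38726, a gene that does not encode a protein, at 11539 bp and 1577 bp. On the other side of Pdgfa, Prkar1b, which encodes a regulatory subunit of protein kinase A, had 2 peaks of up to 6.79-fold. On the side of the Pdgfa peaks the next protein-coding gene, Gm5294, 154.3 kb before Pdgfa, had 0.

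The ligand gene Pdgfb, on chromosome 15 from 79995865 to 80024614, encodes the chain that binds both receptors. It had 0 peaks, and the nearest summit lay 58.8 kb from the gene. That summit was the 15.6-fold peak at an end of Rpl3, a ribosomal protein gene. Cbx7, a Polycomb gene 24.7 kb before Pdgfb, had 0 peaks as well. No peak at Pdgfb means that none passed the authors' threshold at a depth that is unknown here.

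The ligand gene Pdgfc, on chromosome 3 from 81036416 to 81214040, had 3 peaks within a narrow range of 5.65-fold to 6.60-fold. One lay 8.79 kb past the listed start, from 81045095 to 81045304, with 5.98-fold enrichment. The highest, from 81197120 to 81197397, lay inside the gene 16.8 kb from its last base, with 6.60-fold enrichment. The third lay 14.7 kb beyond that base, from 81228567 to 81228857. The highest ranked 14976 by −log10 q, outside the 14191 peaks with the highest values. Of the genes next to Pdgfc, Gm29808 had 1 peak of 10.4-fold and Ctso had 0.

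The ligand gene Pdgfd, on chromosome 9 from 6168363 to 6534284, is the longest of the 6 at 365.9 kb and had 2 peaks, both inside it. The higher, from 6264127 to 6264386, had 8.63-fold enrichment and a −log10 q of 14.3, and lay 95.8 kb past the listed start of Pdgfd. It also lay 761 bp from an end of Ddi1, a gene nested within Pdgfd. The other, from 6342121 to 6342351, had 3.53-fold enrichment and a −log10 q of 2.02, which ranked it 28247 of 28381. Outside the gene the nearest summit was 650.3 kb away, and that one belonged to Dync2h1, the next gene after Pdgfd, with 5.07-fold enrichment. Casp12, the gene before Pdgfd, had 0 peaks.

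Across the 13 peaks the fold was close to that of the whole list. Their median was 5.98-fold (order-statistic 95% interval 4.35 to 9.79), against 6.27-fold for all peaks (quartiles 5.07 and 9.22). Strong peaks made up 3 of the 13 (23.1%, exact 95% binomial interval 5.04 to 53.8%), against 17.6% of the list. Of the 13 peaks, 9 lay inside a PDGF gene (69.2%), a position the rule itself selects, where 62.0% of all peaks that the rule assigned to a gene lay inside one. Within 1 kb of a gene end were 2 of the 13, the strong peak of Pdgfra and the Pdgfd peak beside Ddi1 (15.4%, exact interval 1.92 to 45.4%), against 20.8% of all assigned peaks. These intervals cover counting error only. They treat the 13 peaks as independent, although some lay close together in the same gene.

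**Figure D3:**
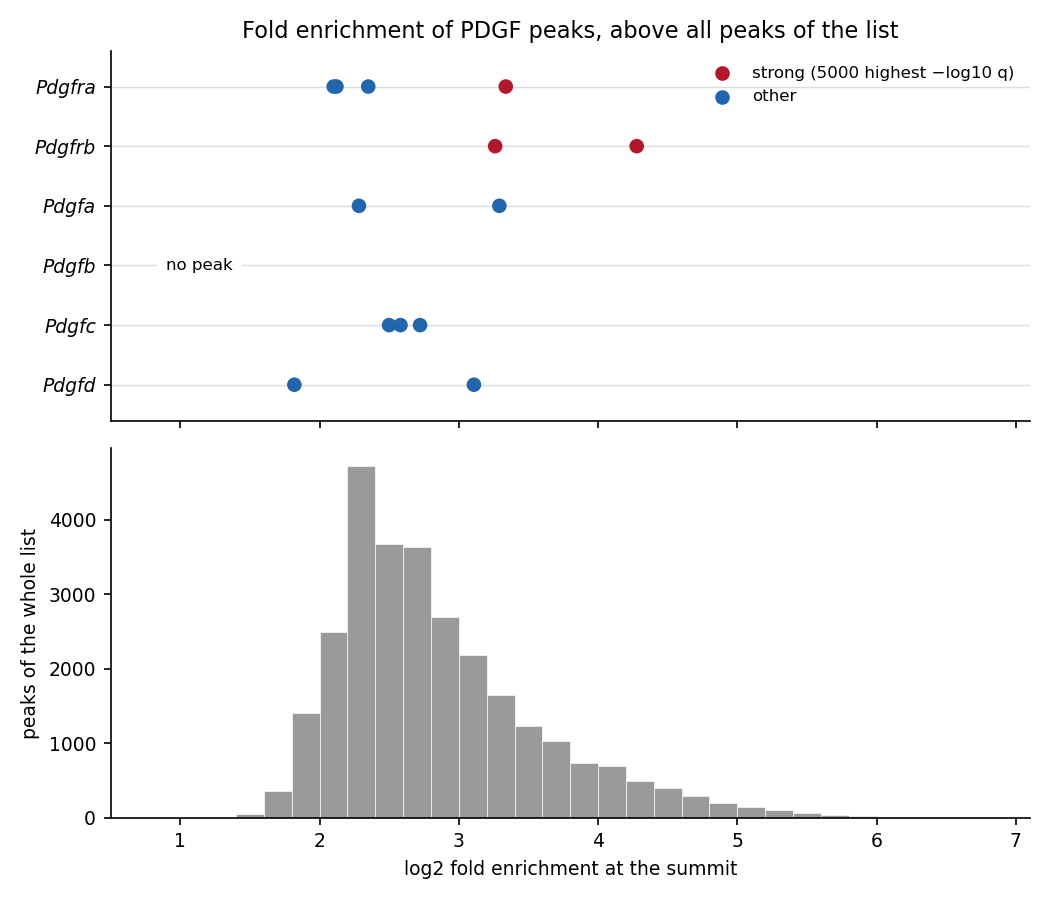
Log2 fold enrichment at the summit (horizontal axis) of each peak of the 6 PDGF genes in the upper panel, 1 row per gene, above the number of peaks of the whole list in bins of that value in the lower panel. Red points are strong peaks; the 19.4-fold peak of Pdgfrb is farthest right, and 7 of the 13 peaks lie below the list's median of 6.27-fold.

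Counted by gene, 5 of the 6 PDGF genes had a peak, where 41.7% of 21631 protein-coding genes did by the same rule. A strong peak was found for 2 of the 6, where 11.9% of all genes had one. With strong peaks taken as the 1000 highest by −log10 q, 0 of the 6 had one (3.26% of all genes). The stretch of sequence in which a peak would be counted differed widely among the PDGF genes, from 50.4 kb for Pdgfrb to 565.9 kb for Pdgfd. Scaled by it, the receptors had 2.56 peaks per 100 kb and the ligands 0.674, and all 6 genes together had 1.02, against 1.28 over the stretches of all protein-coding genes. Pdgfrb had 3.97 peaks per 100 kb, Pdgfra 2.18, Pdgfa 1.82, Pdgfc 1.02 and Pdgfd 0.353. With 2 receptors and 4 ligands, the difference between them was not tested.

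The limit of 100 kb decided little. The farthest counted summit outside a gene body was that of Pdgfa at 29.3 kb. A summit 155.8 kb beyond Pdgfc (4.24-fold) was left out for distance alone, and with a limit of 1 Mb it was counted for Pdgfc. A summit 190.8 kb beyond Pdgfra (11.5-fold) was also over 100 kb from any protein-coding gene end. It lay nearer to Kit, and with a limit of 1 Mb Pdgfra still had 4 peaks.

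Genes that act with PDGF ligands and receptors were described from 7 lists of 57 genes in all. At least 1 peak was found for 43 of them (75.4%) and a strong one for 13 (22.8%), where 41.7% and 11.9% of all protein-coding genes had one. These shares were not matched for the length of the stretch or the activity of the genes, and lists of 5 to 16 genes give coarse shares. Among the VEGF and PGF ligands, which share the cystine-knot fold of the PDGFs, 4 of 5 had a peak and 1 a strong one. Vegfa, the main growth factor of endothelium, had 4 peaks, with 28.0-fold at the highest, 28.9 kb outside the gene. The highest peaks of Vegfc, Vegfd and Pgf had 9.41, 10.8 and 4.31-fold enrichment, none of them strong, and Vegfb had 0 peaks.

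Among the other receptor kinases of classes III and V, 2 of 6 had a peak, a share under the 41.7% of all genes, and both of those had a strong one. Kit, the stem cell factor receptor and the next gene after Pdgfra on chromosome 5, had 3 peaks, up to 18.9-fold at 30.1 kb outside the gene. Flt1, a VEGF receptor gene, had 4, up to 17.6-fold inside the gene. The related Csf1r, Flt3, Kdr and Flt4 had 0 peaks.

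Of 8 genes for processing or binding of the ligands, 5 had a peak and 2 a strong one. Plat, whose protease cleaves PDGF-C, had 2 peaks, up to 16.5-fold, and Lrp1, an endocytic receptor that associates with PDGFRβ, had 4, up to 10.2-fold. Of 16 genes for signalling proteins that bind the activated receptors, 14 had a peak and 3 a strong one. The adaptor gene Nck2 had 6 peaks, up to 17.9-fold at 0.107 kb from a gene end, and Pik3ca, a catalytic subunit of phosphoinositide 3-kinase, had 2, up to 12.2-fold.

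Of 5 negative regulators, 4 had a peak and 2 a strong one. The phosphatase gene Ptpn1 had 11 peaks, 3 of them strong and 1 of them inside the gene. Its top peak by −log10 q had 16.2-fold enrichment and lay 52.3 kb outside the gene. The ubiquitin ligase gene Cblb had 4 peaks, 2 of them strong, and 17.3-fold at its top peak by −log10 q. Ptpn2 had 1 peak and Cbl 2, none strong, and Ptprj had 0. Of 10 early response genes and their regulators, 9 had a peak and 3 a strong one. The highest were those of Mrtfa, a co-activator of serum response factor (26.7-fold), and of the transcription factor gene Fos (22.7-fold). They lay 15.8 kb and 37.4 kb outside the gene. Of 7 genes of pericytes and vascular smooth muscle, 5 had a peak and 0 a strong one, with 10.4-fold at Abcc9 and 8.95-fold at Kcnj8, which encode subunits of a potassium channel.

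**Figure D4:**
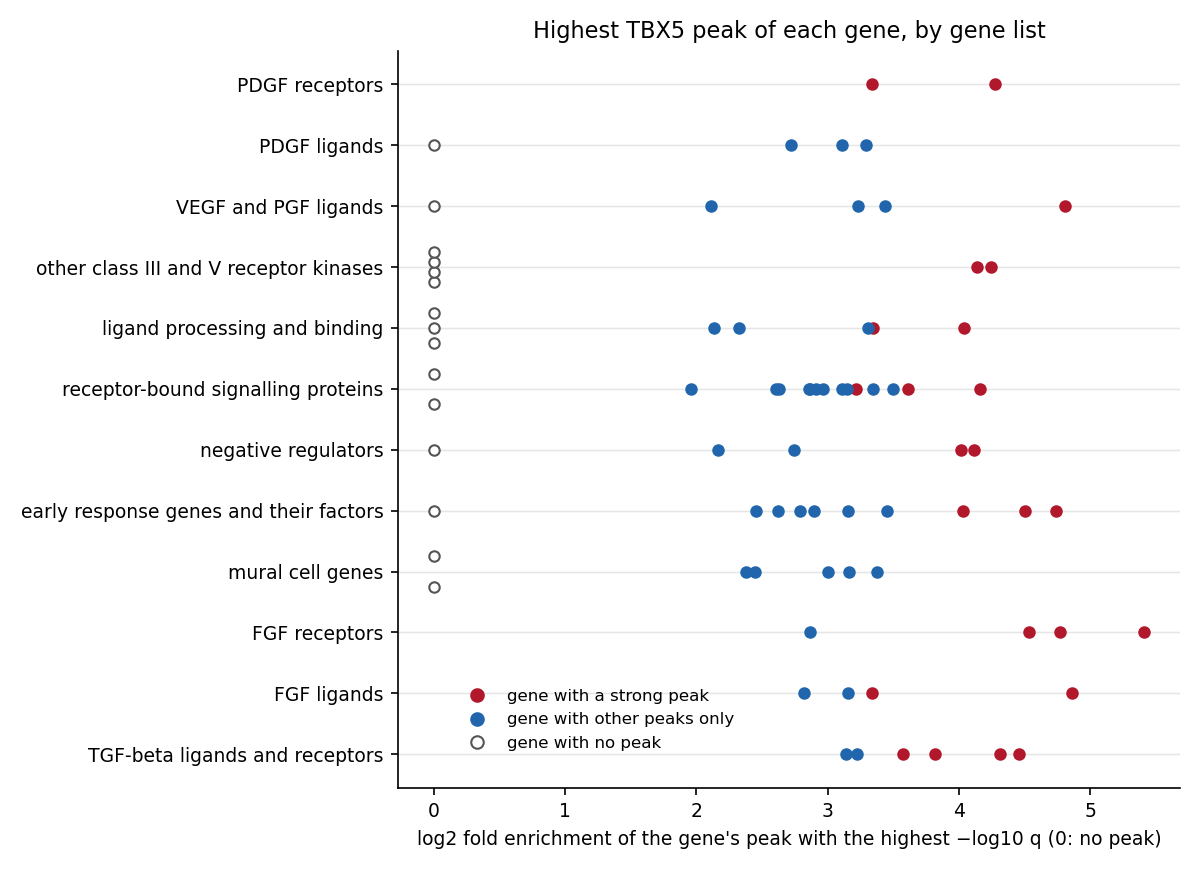
Log2 fold enrichment of each gene's peak with the highest −log10 q (horizontal axis), by gene list (vertical axis). Each point is a gene, red with a strong peak, blue with other peaks only, and open at 0 with no peak; both PDGF receptor genes are red and all 4 PDGF ligand genes are blue or open.

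Set beside the FGF and TGF-beta families, the 6 PDGF genes had fewer peaks per gene and per 100 kb (1.02). This did not hold for all related families. The VEGF and PGF ligands had 2.2 peaks per gene and 2.45 per 100 kb. The other receptor kinases of classes III and V had 1.17 per gene and 0.754 per 100 kb, both below the PDGF genes. Per 100 kb, the PDGF receptors alone stood above the FGF ligands and below the FGF receptors and TGF-beta genes. The 13 PDGF peaks made 2.17 per gene, with 19.4-fold at the most and a median of 5.98-fold. The median was 6.84-fold for FGF receptors, 7.31-fold for FGF ligands and 7.07-fold for TGF-beta genes. The 13 peaks are not replicates, so no interval was used to compare these medians. The 4 FGF receptor genes had 27 peaks, or 6.75 per gene, and 3 of these genes had a strong peak. Their highest peaks were 42.5-fold at Fgfr2, 27.3-fold at Fgfr1, 23.1-fold at Fgfr3 and 7.30-fold at Fgfr4. The 4 FGF ligand genes had 16 peaks, or 4.00 per gene, with strong peaks at Fgf7 (29.1-fold) and Fgf18 (10.1-fold) and none at Fgf10 or Fgf9. The 6 TGF-beta ligand and receptor genes had 43, or 7.17 per gene, of which 22 were at Tgfbr3. Strong peaks were found at Tgfbr3 (22.0-fold), Tgfb2 (19.9-fold), Tgfb1 (14.1-fold) and Tgfb3 (11.9-fold), and none at Tgfbr1 or Tgfbr2. The peaks given here for Fgfr2, Fgfr3, Fgf18, Tgfbr3, Tgfb2 and Tgfb1 lay 2.48 to 59.8 kb outside the gene. Those given for Fgfr1, Fgfr4, Fgf7 and Tgfb3 lay inside it. Per 100 kb of summed stretch, the PDGF receptors had 2.56 peaks and the PDGF ligands 0.674, against 5.90 for FGF receptors, 2.28 for FGF ligands and 5.33 for TGF-beta genes. Of the peaks, 23.1% were strong for the PDGF genes, 25.9% for FGF receptors, 12.5% for FGF ligands and 20.9% for TGF-beta genes. The differences between families were not tested.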

How the data were processed

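Per the submitters' processing notes, Bowtie2, SAMtools and MACS2 were used with build mm10. The sources used here do not give settings, the control or whether the ChIP libraries were merged. The deposited list of 28381 peaks has no header. Its layout and values give a fold (a ratio over local background), a −log10 q-value at the summit, and a score deposited by the authors, which was not used. The authors' summit offset, in bp, placed each peak. Starts are given 1-based.

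Genes came from RefSeq GRCm38.p6 (21631 protein-coding genes, without strand or exons) and listed starts from RefSeq promoter windows. Assignment used Python 3.11.15, numpy 2.4.6 and pandas 2.3.3, and was tested on simulated data. Intervals are exact 95% binomial (scipy 1.17.1). No test was made.

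The genes and lists were chosen with earlier results of these data known. Named were the 6 PDGF genes with all their peaks, their neighbours, the 2 genes per list with the highest −log10 q, and every gene of lists of up to 6, except 1 gene that is not reported here.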

Additional observations from a re-analysis of the deposited data

How the results depend on the processing

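The 13 peaks, 3 strong peaks and 2 genes with a strong peak were compared under each alternative. Assigning by the gene body only, by the nearest end only, with limits of 50 kb or 1 Mb, with all annotated genes competing or, for the peaks, by any base of a peak gave 9 to 14 peaks. It left 3 strong peaks and 2 genes with one. By the nearest end only, Pdgfd had 0 peaks, since both were nearer to Ddi1, and by the body only or with all annotated genes Pdgfa had 0. Keeping the 14191 peaks with the highest −log10 q left 5 peaks, 2 at Pdgfrb, 1 each at Pdgfra, Pdgfa and Pdgfd, and 0 at Pdgfc.

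The strong calls depended on the definition. With the 1000 highest −log10 q there were 0 strong peaks and 0 genes with one, where 3.26% of all genes had one. With the 5000 highest folds there was 1 strong peak in 1 gene, Pdgfrb (11.5% of all genes). The same 1 and 1 were found with the 4500 highest −log10 q (11.0% of all genes), a setting chosen after seeing the data, because the strong peak of Pdgfra and the lower of Pdgfrb ranked 4961 and 4918. With the 14191 highest there were 5 strong peaks in 4 genes (26.8% of all genes). The median fold of the PDGF peaks was 9.79 with those 14191 peaks, which left 5, and 5.65 without gene-end peaks. The share at gene ends was 40.0% of the 5 peaks left, and 23.1% of all 13 with a window of 2 kb. Values over the whole list are not given here for the 2 kb window or without gene-end peaks. Among all of those 14191 peaks, assigned to a gene or not, the median was 9.22-fold and the share at gene ends 14.6%. In the full list that share was 17.6% of all peaks and 20.8% of assigned peaks.

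No library was left out in turn. No paired analysis was possible because the list holds no value per library. The depth behind each peak is unknown.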

Other observations

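A group of 9 peaks lay before Chic2 on chromosome 5 and was counted for no gene. Each of the 9 was over 100 kb from any end of a protein-coding gene. The group was chosen after its values were seen. The peaks lay 268.5 to 343.3 kb before the first base of Pdgfra, on the far side of Chic2 and Gsx2. Their fold ran from 4.31 to 29.5, above the 10.1-fold of the Pdgfra start at the most. The highest, from 74877602 to 74877976, had a −log10 q of 103.2 and ranked 385 of 28381. A second strong peak, from 74874611 to 74874933, had 15.2-fold enrichment. With a limit of 1 Mb none of the 9 was counted for Pdgfra, which still had 4 peaks. Which gene these sites belong to was not tested.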
